A study of Homo sapiens with 34 samples.

Results

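Glucose carriers, the enzymes of glycolysis and well known target genes of the hypoxia-inducible factors (HIFs) were followed through the m6Am peak lists of HEK293T cells. The set was 40 genes, 39 of them protein-coding and 1 a long non-coding RNA (SLC2A1-AS1), out of 20090 protein-coding genes in the annotation. A gene was counted as listed where a row of a list carried its name, or where the span of a row covered the start of its canonical transcript under the name of a neighbour. By this rule, 12 distinct rows out of 2116 rows in the 3 lists belonged to the set, and they fell on 9 of the 40 genes. The rule uses the names and positions of called peaks and no measured level. The genes were chosen with earlier results of these data known.

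HEK293T cells are a line derived from human embryonic kidney. In m6Am-seq, fragments with a cap are first pulled down through m7G, and an m6A antibody is then applied with or without prior demethylation by FTO, so that a peak lost after FTO is called m6Am. The baseline list came from wild-type cells at 37 °C (2 libraries each of FTO (−) m6A-IP, FTO (+) m6A-IP, m7G-IP and input). The hypoxia list compared cells held at 1% oxygen and 37 °C for 24 h with Untreated cells at 37 °C, and the heat shock list compared cells held at 43 °C for 2 h, followed by 6 h of recovery, with the same Untreated cells; each of the 3 conditions had 7 libraries (2 FTO (−), 2 FTO (+), 2 m7G-IP and 1 input). All groups were the same cell line, and the labels give no other genotype for them. Each list holds 1 set of peaks per condition, with 1652 rows at baseline, 390 under hypoxia and 74 under heat shock, and none gives a read count, strand or replicate. The stress lists also carry the authors' own ratio of stressed to untreated cells for each peak, which was not used. The lists used here may not hold every peak that was called. No error between replicates and no test could therefore be given, and the depth behind a peak is unknown. Intervals given for shares are 95% Wilson intervals and cover counting error only. They treat genes or spans as independent random draws, which those of a chosen set are not. An interval that leaves out the share of all genes or spans is therefore not a test of a difference. The files hold no expression level, so neither the cell line label nor the RNA level of any gene was checked, and whether a gene is in a list for its methylation or for the abundance of its transcript cannot be told apart.

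m6Am is an adenosine at the first transcribed position, next to the cap, that carries methyl groups on both its ribose and its base. PCIF1 writes the base methyl group, and FTO removes it. In low oxygen, prolyl hydroxylases of the EGLN family no longer mark HIF1A for destruction, and HIF then binds hypoxia response elements near its target genes, many of which encode glucose carriers, glycolytic enzymes and the factors that shift cells from respiration to glycolysis.

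The annotated starts of the 8 protein-coding genes with a row are shown first, because m6Am requires an adenosine at the first transcribed base. Each sequence holds 20 bases before the canonical start and 10 bases from it, in the transcribed direction, with the start base in capitals. The sequences were read from the GRCh37 genome (the build of hg19), and the starts from Gencode release 44.
SLC2A1 (chr1:43424530-43424559, minus strand): cggtccgcgcgctctctggcAagaggcaag
SLC2A3 (chr12:8088774-8088803, minus strand): tcatgatcccagcgagacccAgagatgctg
HK2 (chr2:75061234-75061263, plus strand): cggcagcccctcaataagccAcattgttgc
HIF1A (chr14:62162211-62162240, plus strand): tgacgctgcctcagctcctcAgtgcacagt
MXI1 (chr10:111967343-111967372, plus strand): gtaggttcattcaatctcccAtacacacag
BHLHE40 (chr3:5021102-5021131, plus strand): ccccgcccgccccacttctcAttcacttgg
ENO2 (chr12:7023724-7023753, plus strand): ccgcagccgccgccgccactGccactcccg
PGAM1 (chr10:99185928-99185957, plus strand): gcgagtggaaagatttgggcGagaacttgc

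The first 6 of these genes start with an adenosine, and in each of the 6 it stands in the BCA context (B being any base but A) known for m6Am. ENO2 and PGAM1 start with a guanosine. For ENO2, Gencode places 8 starts within the listed span, and 1 of them, 17 bases downstream of the canonical one, is an adenosine after TC.
ENO2, start at 7023761 (chr12:7023741-7023770, plus strand): actgccactcccgctctctcAgcgccgccg
For PGAM1, 2 annotated starts lie within the listed span, and neither is an adenosine.

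At baseline, 8 of the 40 genes were listed, from 7 distinct rows: SLC2A1, SLC2A1-AS1, SLC2A3, HK2, ENO2, HIF1A, MXI1 and BHLHE40. Under hypoxia 4 were listed (HK2, PGAM1, ENO2 and BHLHE40), and under heat shock only MXI1 was. A row in a stress list means that the authors called the peak as different from Untreated cells. The direction of that difference rests on the ratio that was not used, and is not given here. Among the protein-coding genes of the set, 7 of 39 were listed at baseline (17.9%, interval 8.98 to 32.7%), beside 8.17% of all protein-coding genes under the same rule. Under hypoxia it was 4 of 39 (10.3%, interval 4.06 to 23.6%) beside 2.00%, and under heat shock 1 of 39 (2.56%, interval 0.454 to 13.2%) beside 0.373%. The 39 genes are not a random draw, were chosen with earlier results of these data known, and no excess was tested. The shares of all protein-coding genes also count genes that these cells may not express. No expression level was at hand to leave such genes out. Both stress lists share the Untreated libraries, so they are not independent of each other.

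**Figure D1:**
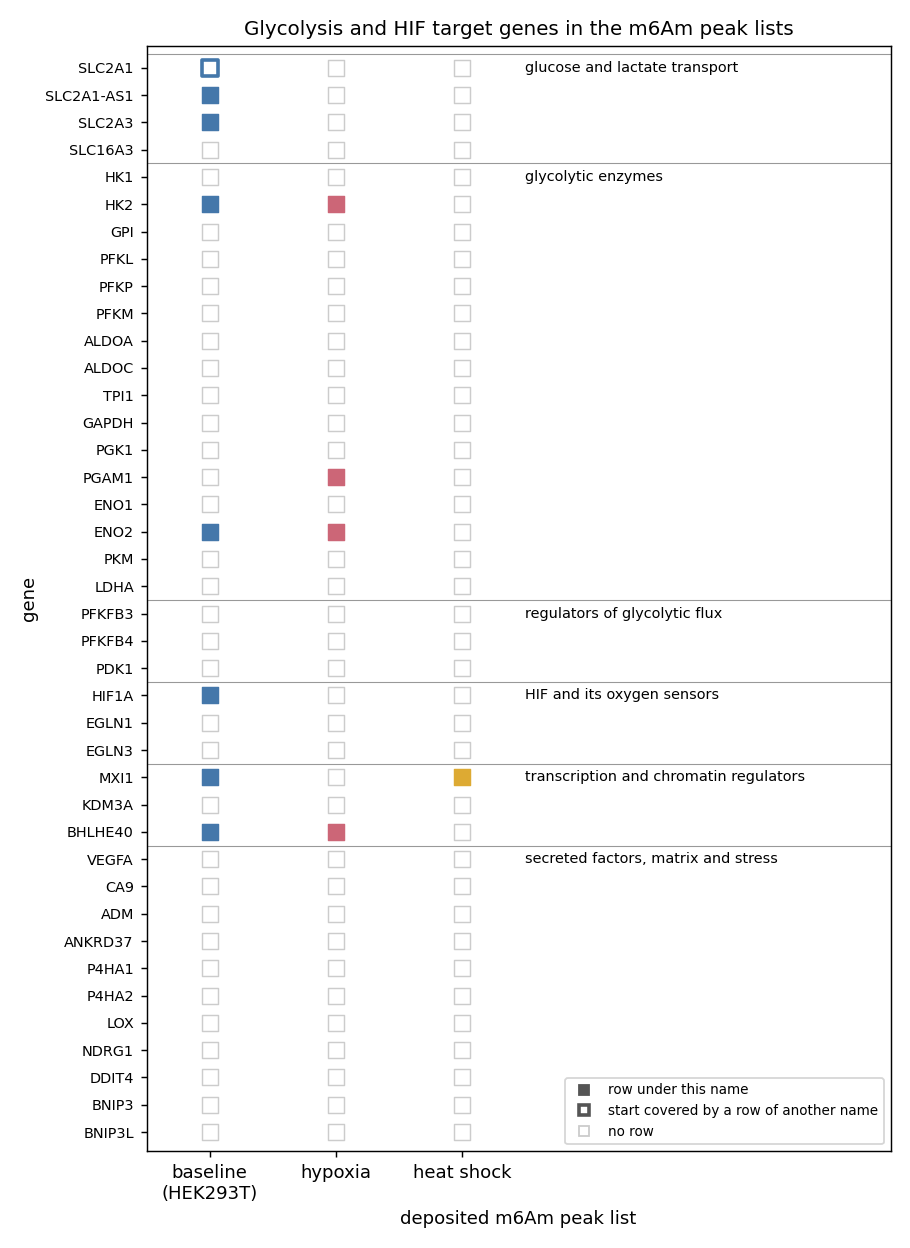
Each line is 1 of the 40 genes, ordered by role, and each column is 1 of the 3 deposited m6Am peak lists; a filled square is a row under the gene's name, a thick open square a start covered by a row of another name, and a pale open square no row. Filled or thick squares stand beside 9 genes, and the regulators of glycolytic flux and the secreted, matrix and stress genes have none.

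By role, 3 of the 4 genes of the transport group were listed at baseline, and none under either stress. The 3 rest on 2 rows, since SLC2A1 and the non-coding SLC2A1-AS1 share 1. Of the 16 glycolytic enzymes, 2 were listed at baseline and 3 under hypoxia. Of HIF and its oxygen sensors, 1 of 3 was listed, at baseline only. Of the 3 transcription and chromatin regulators, 2 were listed at baseline, 1 under hypoxia and 1 under heat shock. The 3 regulators of glycolytic flux and the 11 secreted, matrix and stress genes had no row in any of the lists. These counts per role are small, and the shares of all protein-coding genes to read them against are the 8.17%, 2.00% and 0.373% given above.

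The protein-coding genes of the transport group encode carriers that move glucose in and lactate out of the cell. SLC2A1 encodes GLUT1, the glucose carrier of most proliferating cells. Its baseline row is named after the antisense gene SLC2A1-AS1 and spans chr1:43424361-43424539, 179 bp. The upper end of the span is the annotated canonical start of SLC2A1, which lies on the minus strand. All 179 bp fall in the first exon of SLC2A1, upstream of the coding sequence. SLC2A1-AS1 (SLC2A1-DT in the annotation) lies on the plus strand with its canonical start at 43424749, and the span ends 210 bp before that start and shares 0 bp with the antisense gene. The name of the row is therefore that of the divergent neighbour, while its position is that of SLC2A1. The list gives no strand, but no annotated SLC2A1-AS1 start lies in the span, and 4 of the 11 annotated SLC2A1 starts do. Neither name had a row in the hypoxia or heat shock lists used here, and whether m6Am of SLC2A1 changed under either stress was not analysed here.

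SLC2A3 encodes GLUT3, a glucose carrier of high affinity. Its baseline row spans chr12:8088624-8088892, 269 bp, from 109 bp upstream to 159 bp downstream of the canonical start, and holds 5 of the gene's 11 annotated starts, 3 of them adenosines. It reaches 7 bp into the coding sequence. SLC16A3, which encodes the lactate exporter MCT4, had no row, and the nearest baseline span, named CSNK1D, lay 36.7 kb from its start.

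HK2, PGAM1 and ENO2 encode enzymes at the entry and in the lower part of glycolysis. HK2 encodes hexokinase 2, which traps glucose as glucose-6-phosphate. Its baseline row spans chr2:75061129-75061518, 390 bp, from 125 bp upstream to 264 bp downstream of the start and outside the coding sequence. Its hypoxia row has the same start and ends 30 bp earlier, at 75061488, so that it covers 92.3% of the baseline span. The only annotated start in both spans is the adenosine shown above.

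ENO2 encodes gamma enolase, the neuronal form of the enzyme that makes phosphoenolpyruvate. Its baseline row spans chr12:7023614-7025074, 1461 bp, and touches 2 exons of the canonical transcript, of which 170 bp are exonic and 78 bp coding. Under hypoxia the row begins at the same base and ends 529 bp later, at 7025603, touching 3 exons with 200 bp exonic and 108 bp coding. Most of either span is therefore intron. ENO1, the gene of the common enolase, had no row, with the nearest baseline span 61.0 kb away.

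PGAM1 encodes phosphoglycerate mutase, which moves the phosphate group ahead of the enolase step. It was the only gene of the set with a row under hypoxia and none at baseline. The row spans chr10:99185882-99186178, 297 bp, from 66 bp upstream to 230 bp downstream of the start, with 114 bp in the coding sequence. In the whole hypoxia list, 165 of 385 distinct spans lay over no baseline span and 220 (57.1%) did, so this pattern was common in the list.

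The other 13 glycolytic enzymes had no row in any list by name or canonical start. These were HK1, the phosphoglucose isomerase GPI, the phosphofructokinases PFKL, PFKP and PFKM, the aldolases ALDOA and ALDOC, TPI1, GAPDH, PGK1, ENO1, the pyruvate kinase PKM and the lactate dehydrogenase LDHA. Among the regulators of flux, the fructose-2,6-bisphosphate enzymes PFKFB3 and PFKFB4 and the pyruvate dehydrogenase kinase PDK1 had none either.

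HIF1A encodes the oxygen-regulated subunit of HIF-1. Its baseline row spans chr14:62162119-62162447, 329 bp, from 112 bp upstream to 216 bp downstream of the start, and ends before the coding sequence. The prolyl hydroxylase genes EGLN1 and EGLN3, which encode oxygen sensors, had no row.

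MXI1 encodes a repressor that opposes MYC at its binding sites. Its row spans chr10:111967363-111967572, 210 bp, begins exactly at the adenosine of the canonical start and reaches 6 bp into the coding sequence. The heat shock row has the same start and end as the baseline row, and no row was found under hypoxia. BHLHE40 encodes a transcriptional repressor of the circadian and hypoxic responses. Its row spans chr3:5021097-5021335, 239 bp, from 25 bp upstream to 213 bp downstream of the start, and is identical at baseline and under hypoxia. KDM3A, a histone H3 lysine demethylase gene, had no row.

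**Figure D2:**
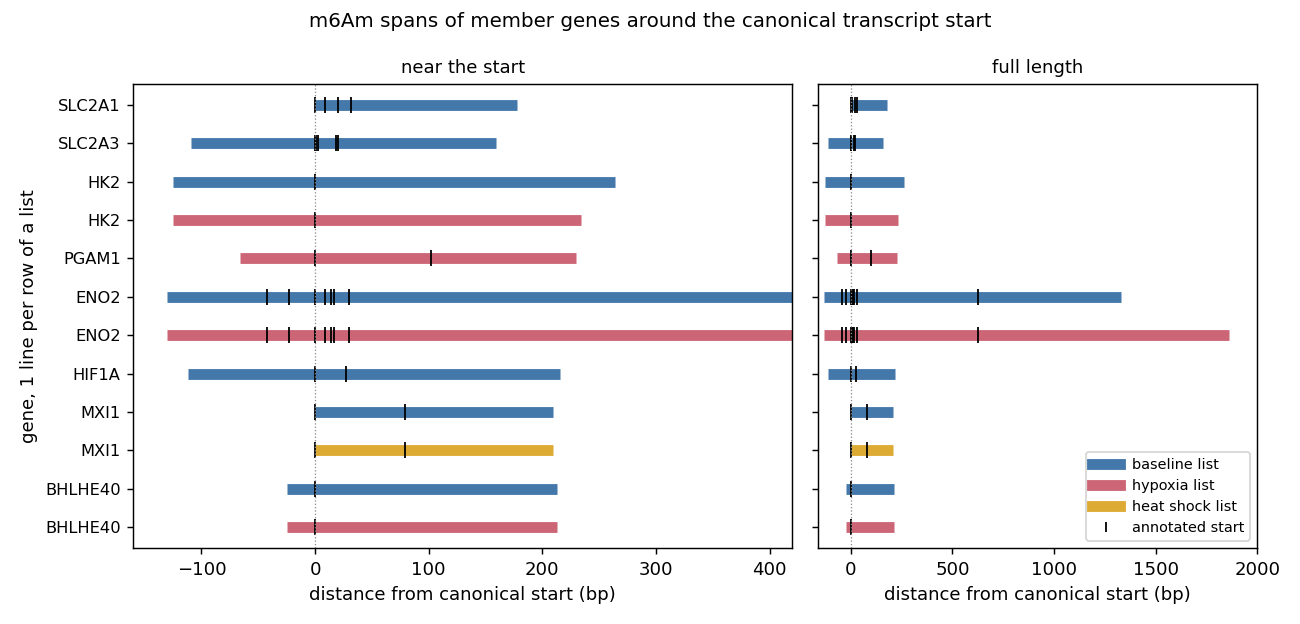
Each bar is the outer span of 1 row, placed by its distance in bp from the canonical transcript start in the transcribed direction (left panel, near the start; right panel, full length), and black ticks are annotated starts within it; colours give the list. Every span covers the start, HK2 and ENO2 begin at the same base at baseline and under hypoxia but end 30 bp earlier and 529 bp later under hypoxia, and the paired MXI1 and BHLHE40 bars are the same.

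Of the 7 baseline spans of the set, 3 were overlapped by a hypoxia span (42.9%, interval 15.8 to 75.0%), beside 13.5% of all baseline spans (223 of 1652). No difference between these shares was tested. A heat shock span overlapped 1 of the 7 (14.3%, interval 2.57 to 51.3%), beside 2.54% of all baseline spans (42 of 1652). Overlap was counted from 1 bp. The 3 hypoxia pairs of the set (HK2, ENO2 and BHLHE40) begin at the same base in both lists, as did 125 of 225 overlapping pairs in all. In BHLHE40 both ends were the same, as they were in 43 of the 225 pairs (19.1%). With heat shock, both ends were the same in MXI1 and in 9 of 45 pairs (20%).

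The baseline spans of the set were short. Their median length was 269 bp (range 179 to 1461 bp), beside 1217 bp for the 1611 baseline spans with a matched gene, and 6 of 7 (85.7%) were at most 1000 bp long, beside 47.6%. The share of all baseline spans that were shorter was 4.96% for SLC2A1, 10.5% for MXI1, 15.1% for BHLHE40, 20.5% for SLC2A3, 29.4% for HIF1A, 34.2% for HK2 and 51.9% for ENO2. All 7 covered the canonical start, as did 74.9% of the matched spans. Covering the start is itself a way into the set, and the SLC2A1 span entered only by it. The 7 of 7 is therefore partly set by the rule. The 5′ ends of the 7 spans lay a median of 109 bp from the canonical start, beside 54 bp for all matched spans, so the spans of the set were not the closer ones. These are outer spans, with introns included.

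**Figure D3:**
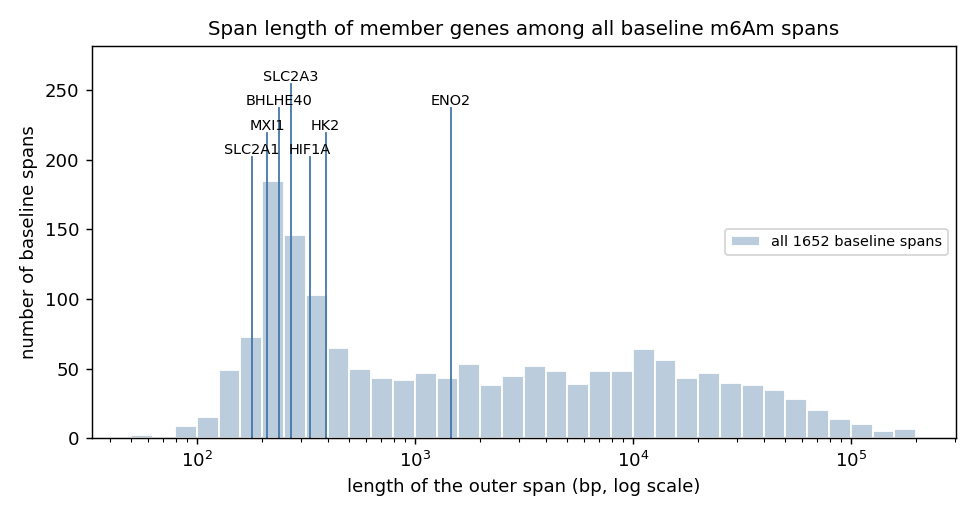
Grey bars count all 1652 baseline spans by outer length in bp on a log scale, and the vertical lines mark the 7 baseline spans of the set, labelled by gene. The lines lie between 179 and 1461 bp, and only ENO2 lies above 1000 bp.

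Among the protein-coding genes of the set, 18 of 39 canonical starts (46.2%) were an adenosine, beside 50.6% of all protein-coding genes. The share was 6 of 8 (75.0%) for genes with a row in any list and 12 of 31 (38.7%) for genes without one. The 8 include PGAM1, which was listed under hypoxia only. They are few, and no difference was tested. Over all protein-coding genes the share was 59.9% for those in the baseline list and 49.7% for those in no list. In the BCA context it was 6 of 8 (75.0%) and 8 of 31 (25.8%) in the set. Beside these stand 40.0% in the baseline list, 33.7% in no list and 34.2% of all genes. The 12 genes of the set that start with an adenosine but have no row are PFKP, PFKM, ALDOC, ENO1, PFKFB3, PDK1, KDM3A, CA9, ADM, LOX, NDRG1 and BNIP3. These 12 were picked by their start base and missing row, so they do not show how often an adenosine goes with a row. The annotated starts of GAPDH, PGK1, PKM, LDHA and VEGFA, also without a row, are a guanosine. The annotated start need not be the first base transcribed in these cells, which was not checked. The base there therefore does not show whether a transcript can carry m6Am. Each of the 7 protein-coding genes listed at baseline had an adenosine among the annotated starts inside its span, beside 82.1% of the 1535 listed genes with a start in their span. The 7 spans hold 23 annotated starts of these genes, 10 of them adenosines (43.5%), beside 35.4% of the 8041 starts in all such baseline spans.

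HIF binds the core of the hypoxia response element, searched here as ACGTG and as GCGTG on both strands, from 250 bases before to 50 bases after the canonical start. The CACGTG form reads as ACGTG on both strands and then counts as 2 overlapping matches. Since many genes of the set were chosen as known HIF targets, the share with a core describes the choice. A core was found in 35 of 39 genes (89.7%), beside 56.4% of all protein-coding genes in a window of the same length. It was found in 7 of 8 genes with a row (87.5%) and in 28 of 31 without one (90.3%). No core lay in this window in MXI1, PFKM, TPI1 and EGLN3. With ACGTG alone, the share was 59.0% in the set and 23.2% in all genes. A match is a description of the letters and not a binding site.

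The cores of the genes with a hypoxia row are shown in their surroundings, because these genes carry both a core and a hypoxia call. Each sequence is 30 bases in the transcribed direction with the core in capitals.
HK2 (chr2:75061187-75061216): cgcagccaatggGCGTGcgcacgtcactga
PGAM1 (chr10:99185766-99185795): ctccgcgtgcttACGTGcgctccgtgactg
ENO2 (chr12:7023614-7023643): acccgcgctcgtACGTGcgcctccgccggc
BHLHE40 (chr3:5020936-5020965): ggcagtggccagACGTGcctggagtcacag
In HK2 the core begins 55 bases before the start, and another one on the opposite strand begins 48 bases before it, within the same sequence. Both lie inside the HK2 spans, and the other HK2 core, 229 bases before the start, lies outside them. In PGAM1 the core shown begins 170 bases before the start and another begins 178 bases before it, both outside the PGAM1 span. In ENO2 the core begins 118 bases before the start, inside the listed span, whose first base is also the first base shown. In BHLHE40 it begins 174 bases before the start, and the window holds 4 matches in all, each outside the BHLHE40 span. The HIF1A core (GCGTG, 204 bases before the start) lies outside the HIF1A span, and the cores of SLC2A1 and SLC2A3 lie 25 and 40 bases downstream of their starts, inside the spans.

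**Figure D4:**
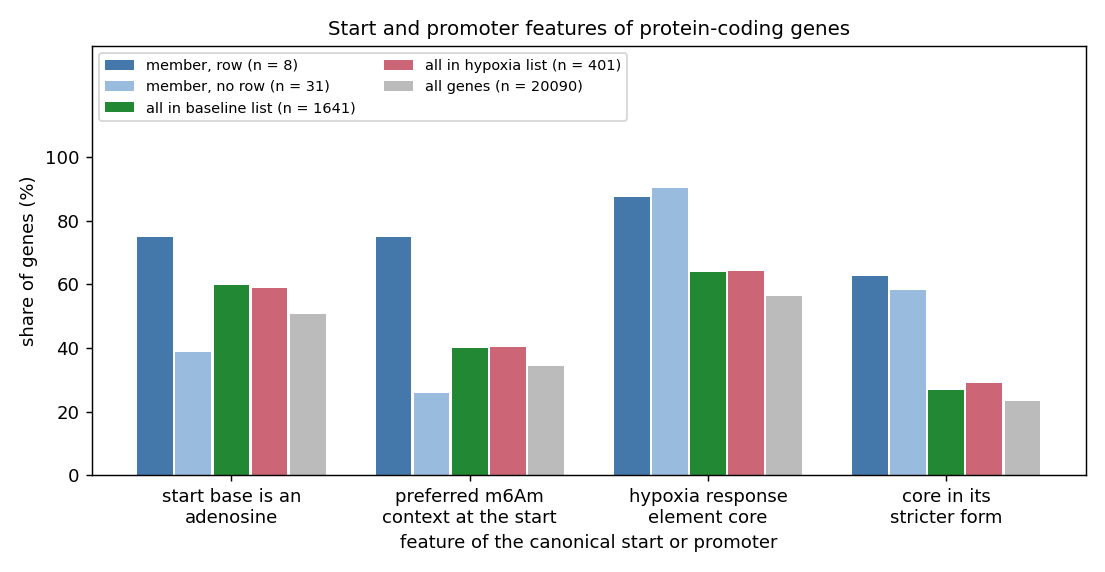
Bars give the share of protein-coding genes (%) with an adenosine at the canonical start, with the BCA context there, with a hypoxia response element core (ACGTG or GCGTG), and with ACGTG alone, for genes of the set with a row (n = 8) and without one (n = 31), all genes in the baseline and hypoxia lists, and all genes. The adenosine and BCA shares are 75.0% with a row against 38.7% and 25.8% without one, and the core shares are 87.5% and 90.3%.

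**Figure D5:**
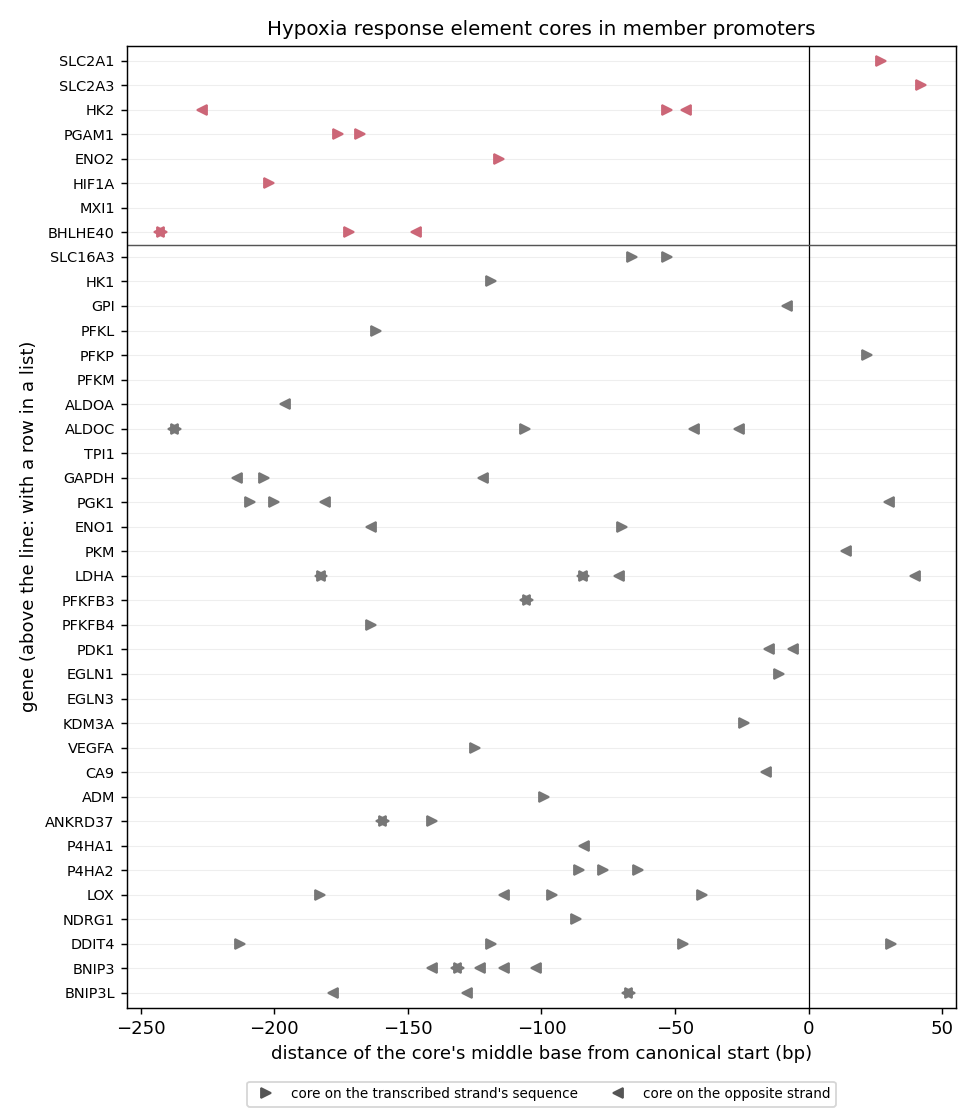
Each line is 1 of the 39 protein-coding genes, with genes that have a row above the horizontal line; arrowheads mark the middle base of each hypoxia response element core by its distance in bp from the canonical start and point right for the transcribed strand and left for the opposite one. Cores are scattered over the window, and MXI1, PFKM, TPI1 and EGLN3 have none.

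Many of the genes of the set with no row were chosen as known HIF targets. Besides the carrier SLC16A3 and the enzymes and regulators named above, they were VEGFA (the angiogenic growth factor), CA9 (a carbonic anhydrase), ADM (adrenomedullin) and ANKRD37. The others were the collagen prolyl hydroxylases P4HA1 and P4HA2, the collagen cross-linking oxidase LOX, NDRG1, DDIT4 (an inhibitor of mTORC1), and the mitophagy receptors BNIP3 and BNIP3L. A missing row says only that no peak of that gene is in the lists used here, not that the transcript carries no m6Am, since the detection limit of the lists is unknown. No baseline span lay within 10 kb of the canonical start of any of the 31 protein-coding genes without a row, beside 532 of 18256 unlisted protein-coding genes (2.91%). The median distance was 274 kb, from 10.2 kb for ALDOA, where the nearest span is named PPP4C, to 12000 kb for ANKRD37, beside a median of 381 kb for all unlisted genes. The next closest was PFKM, 11.3 kb from the span named SENP1. That span (chr12:48499656-48501879, 2224 bp) covers 8 other annotated starts of PFKM, the closest 12976 bp from the canonical one, and it was not counted for PFKM. The nearest span to TPI1, 46.9 kb away, was that of ENO2.

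Further genes of the same pathways, chosen with earlier results of these data known, were counted by the same rule, and no excess was tested. Of 18 regulators of HIF, 3 were listed at baseline (16.7%), 0 under hypoxia and 1 under heat shock (5.56%), beside the shares of all protein-coding genes given above. EPAS1, which encodes the HIF-2 alpha subunit, had a baseline span of 150 bp that begins 5 bp before its start. CUL2 and ELOC, both parts of the ligase that marks HIF for destruction, were listed at baseline, CUL2 with a span of 19050 bp named MIR3611, and ELOC also under heat shock with a span of 16353 bp. Of 38 further enzymes and carriers of glycolysis and pyruvate use, 4 were listed at baseline (10.5%), 1 under hypoxia (2.63%) and 0 under heat shock. The 4 were SLC16A1 (the lactate carrier MCT1), BSG (its chaperone basigin), PGM1 (phosphoglucomutase) and DLAT (a subunit of pyruvate dehydrogenase), and the hypoxia gene was PGM2. The BSG span is 210 bp long and begins 1319 bp before the canonical start. It does not reach that start and was linked by name.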

How the data were processed

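The series has 34 HEK293T libraries in 21 groups by their labels. The 3 deposited lists concern 8 wild-type m6Am-seq libraries and 21 libraries of Untreated, Hypoxia and heat_shock cells. Per the methods and submitters' notes, the authors trimmed reads with Trim Galore 0.6.6, aligned them to hg19 with HISAT2, called peaks with exomePeak and MACS2 where m6A-IP and m7G-IP overlapped, and called m6Am where FTO (−) exceeded FTO (+) more than 2-fold. Stress peaks were called by the authors as differing from Untreated. How replicates were combined is not given in the sources used here.

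The deposited values used were other than counts: start and end positions of outer spans. The stress lists also hold a column of the authors' ratio of stressed to untreated cells, which was not used. No per-sample column was left unused. The number of reads per library is unknown here, so the precision of a peak is unknown. The m7G-IP library of PCIF1-KO cells has a title and a description that disagree on the antibody, and it was grouped by its title; no PCIF1-KO library and no CAGE library enters a comparison.

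Gene names and starts came from Gencode release 44 on GRCh37; of 1807 names, 1718 matched as written, 52 through an older symbol and 37 did not. SLC2A1-AS1 was matched to SLC2A1-DT through a RefSeq synonym. Positions were read as numbered from 1, since 244 baseline starts coincide with an exon's first base, against 20 when shifted by 1 base, and 0 of 2116 rows ended past a chromosome. Overlap needed 1 bp. Every gene of the set is named; a baseline span was to be named where it lay within 10 kb of a gene without a row, and the nearest spans named beyond that were chosen after their values were seen, as were the 4 genes whose promoter cores are printed. Of the wider lists, genes with a row are named, at most the first 10 by position. The genes and lists were chosen with earlier results of these data known. The matching, overlap and motif steps were tested on simulated data. Alternatives tried were other linking rules, spans of at most 1000 bp, stricter overlaps, an adenosine within 2 bases, a window of 500 bases and ACGTG alone. Python 3.11.15, NumPy 2.4.6 and SciPy 1.17.1 were used.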

Additional observations from a re-analysis of the deposited data

How the results depend on the processing

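Linking genes by name alone, by the canonical start alone, by any annotated start, by the end of the gene record, by a span within 100 bp or by spans of at most 1000 bp gave 7 to 9 genes of the set at baseline (8 in the report), 3 or 4 under hypoxia and 1 under heat shock. The 9 arose with any annotated start, which adds PFKM. The comparison over all protein-coding genes moved most with the limit of 1000 bp. It fell from 1641 to 767 at baseline, from 401 to 190 under hypoxia and from 75 to 34 under heat shock. The other linking rules gave 1315 to 1729 at baseline, 321 to 416 under hypoxia and 53 to 79 under heat shock. Requiring an identical start and end lowered the overlap with hypoxia from 3 to 1 of the set's baseline spans and from 223 to 43 of all of them, so that the shares became 14.3% (interval 2.57 to 51.3%) beside 2.60%. Allowing an adenosine within 2 bases of the start raised the count from 18 to 29 genes (74.4%, beside 72.8% of all protein-coding genes). The shares with and without a row then lay closer together, at 87.5% and 71.0% in place of 75.0% and 38.7%. With ACGTG alone, 23 genes had a core instead of 35. With 500 bases before the start, 36 genes had a core (92.3%, beside 72.3% of all protein-coding genes). No paired analysis was possible because the lists hold no replicates.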

Other observations

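Among 48 other known HIF targets, 8 were listed at baseline (16.7%), 6 under hypoxia (12.5%) and 1 under heat shock (2.08%), beside 8.17%, 2.00% and 0.373% of all protein-coding genes under the same rule. The 48 were also chosen with earlier results of these data known, and no excess was tested. At baseline the listed genes were HMOX1 (heme oxygenase 1), KDM5C, RORA, STC2 (a secreted glycoprotein), GYS1 (muscle glycogen synthase), LONP1 (a mitochondrial protease), PNRC1 and SAP30. Under hypoxia they were INSIG2, STC2, LONP1, NAMPT (an enzyme of NAD synthesis), TMEM45A and SAP30. STC2 was the only gene of the 48 in all 3 lists, with the same 1284 bp span at baseline and under hypoxia and a 359 bp span under heat shock. LONP1 had spans of 330 bp at baseline and 360 bp under hypoxia, and SAP30 of 300 and 360 bp. RORA was linked through its start, in a span of 550637 bp named RORA-AS2, the longest in the baseline list.

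The gene record of EGLN3 begins 512 bp from a baseline span named SPTSSA that is 27060 bp long, while its canonical start lies 484 kb from that span.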
